A study of Homo sapiens with 6 samples.

Results

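The genes described here are 47 splicing genes out of the 38637 genes in the deposited expression table: U2SURP and the proteins of the U2 snRNP, proteins of the U1 snRNP and of the U4/U6.U5 tri-snRNP, the SR proteins, the CLK kinases that phosphorylate them, and SR-related factors. They were chosen by name. The list is headed by U2SURP, which the study had taken from the most lowered mRNAs of these same libraries, so the values of U2SURP are given as a description with no test. The libraries came from HCCLM3-SR cells, the form of the human hepatocellular carcinoma (HCC) line HCCLM3 that had been made resistant to sorafenib. Sorafenib is a multikinase inhibitor used against advanced HCC. Polyadenylated RNA was sequenced (PolyA-Seq) in 3 libraries of cells given siRNA against the circular RNA cDCBLD2 and in 3 of cells given a control siRNA. Treatment with siRNA lasted 3 days, and cells of both groups were also given 5 µM sorafenib, so that no group without the drug enters the comparison. The labels do not say whether the replicates were independent cultures, and p-values therefore measure only the spread between these 6 libraries. All 6 libraries came from 1 resistant line. No value for the circular RNA itself was analysed here, so the knockdown was not checked in these libraries.

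Introns are removed by the spliceosome, which is assembled anew on each pre-mRNA. The U1 snRNP binds the 5′ splice site, the U2 snRNP is recruited to the branch point with the help of U2AF, and the U4/U6.U5 tri-snRNP then joins and is rearranged into the catalytic complex. SR proteins bind exonic enhancers and help to define which splice sites are used, and their activity depends on phosphorylation by SRPK and CLK kinases. Many SR protein and CLK genes are known to control their own mRNA through retained introns or poison exons.

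The study places cDCBLD2 upstream of miR-345-5p. The mature miRNA (RefSeq, GRCh38.p14, chr14:100307876-100307897, plus strand) and matches to its seed in 5 mRNAs of the list are printed to show what a match looks like in genes that were lower, or slightly higher, after the knockdown. Capitals mark bases 2 to 8 of the miRNA and the 7 complementary bases of each mRNA, read 5′ to 3′ in GENCODE release 29 transcripts.
hsa-miR-345-5p: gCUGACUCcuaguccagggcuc
HTATSF1 coding sequence, chrX:136499772-136499778: aaagaaaggctGAGTCAGgatggtttcat
HTATSF1 coding sequence, chrX:136511768-136511774: agctgtttgaaGAGTCAGatgacaaggaa
SRSF5 coding sequence, chr14:69769238-69769244: tttatcctcaaGAGTCAGctggcaggatc
SRSF7 3′ UTR, chr2:38744838-38744844: gatatatttgaGAGTCAGacattataatt
SRRM2 coding sequence, chr16:2765200-2765206: aggaaagaagtGAGTCAGactcttctcca
PRPF6 coding sequence, chr20:64031927-64031933: aagctgttttgGAGTCAGcggaagatcac
GAGTCAG was present in the coding sequence or 3′ UTR of 10 of the 46 members tested (21.7%), against 20.8% of the 11772 genes tested that have a coding sequence. The 10 members with a match had a median log2 fold change of -0.21, and the 36 members without a match, U2SURP included, had one of -0.27. Once the trend of each library with GC content had been removed, the order turned, at -0.14 with a match and -0.10 without. Over all genes tested that have a coding sequence, the medians before that removal were -0.12 with a match and -0.08 without. None of these differences was tested. HTATSF1, with a match at each of its 2 printed sites, was lower by 24.9% in mean TPM, while PRPF6, which also has a match, was higher by 9.80%. No match was present in U2SURP, SF3B1, CLK1 or SON, which are among the lowest of the list. A seed match is a description of letters and not a site of regulation.

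Gene levels were deposited in TPM, a unit of transcript abundance that corrects read numbers for gene length and gives every library the same sum. Depth was recovered from the ratios of the values and lay between 16623064 and 21886290 reads per library as a lower bound. The liver-lineage check was mixed. HNF4A (from 22.9 to 31.3 TPM) and KRT18 (from 1800.0 to 2555 TPM) were clearly expressed, whereas ALB stayed between 0.189 and 1.58 TPM, and 7 of the 12 lineage markers had a mean of at least 1 TPM. Among the markers of other cell types, 0 of the 4 leukocyte genes, 1 of the 3 endothelial genes and 2 of the 4 fibroblast genes had such a mean. The summed fibroblast markers, most of it LUM, were from 30.4 to 73.3 TPM in the knockdown group and from 29.5 to 43.0 TPM in the controls, and their part in the results was not tested.

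The members were abundant, with a median control level of 88.5 TPM against 15.2 TPM over the 13980 genes whose mean reached 1 TPM. Of the 47 members, 46 reached that mean and were tested with limma on log2(TPM + 1). The exception was U2AF1, the small U2AF subunit that reads the 3′ splice site, which was listed between 0.618 and 1.26 TPM on 10 to 22 recovered reads per library. Its near-identical copy U2AF1L5 was listed between 1.01 and 1.59 TPM, and how reads of the 2 copies were assigned is not stated in the sources used here.

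Most members were somewhat lower in the cDCBLD2 knockdown group, and the lowest fold changes were those of U2SURP, CLK1, DHX15, LUC7L3, SF3B1 and CLK4. The log2 fold change was negative in 40 of 46 members, against 62.4% of all genes tested, with no test, and its median was -0.26 against -0.08 over all genes tested. The counts in this paragraph include U2SURP, which was chosen for its low level in these libraries. Without U2SURP the log2 fold change was negative in 39 of 45 members, with a median of -0.25. With upper-quartile scaling 33 of 46 members were negative and 13 positive (median -0.19, all genes -0.02), where 6573 of the 13980 genes tested were positive. With limma-voom on recovered reads 32 of 46 were negative and 14 positive (median -0.16, all its genes 0.0006). There 6777 of the 13980 genes tested were positive. The 3 knockdown values lay below all 3 control values in 15 members, U2SURP among them, where 22.3% of all genes tested did so. They lay above the controls in 1 member, PRPF6, where 9.58% of all genes did so. In bulk RNA a lower level of a gene in each cell and fewer cells that express it cannot be told apart.

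Against the spread between replicates these differences were small. With limma on all 6 libraries and Benjamini-Hochberg adjustment, 0 of the 45 members other than U2SURP were lower and 0 were higher at an adjusted p under 0.05, where 0.629% and 0.25% of all genes tested were called. With the study's fold threshold added, a log2 change of 1 in either direction, 0 of these 45 were called, where 0.0787% of all genes were lower and 0.0501% higher. At an unadjusted p under 0.05, 13 of these 45 passed (28.9%), against 26.1% of all genes tested. Limma-voom called 1 member lower, CLK1, where it called 1.73% of its genes.

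Much of that spread set replicate 1 apart from replicates 2 and 3 in both groups. Whether replicates 2 and 3 are also paired across the groups is not shown. Replicate 1 was the highest library of its group, in both groups, for 40 of the 46 members (87.0%), against 38.9% of all genes tested. When the replicate number was added to the model as a block, 25 of the 45 members other than U2SURP were lower and 1 was higher, where 25% and 9.94% of all genes tested were called in these directions. The 25 were 7 of 18 genes of the U2 group, 1 of 4 of the U1 group, 1 of 7 of the tri-snRNP group, all 11 SR and TRA2 genes, both CLK genes and all 3 SR-related genes. The gene called higher was SF3B4. The fold threshold left 0 of the 45, where 0.751% of all genes tested were lower past it. Limma-voom with the block called 22 members other than U2SURP lower and 4 higher (SF3B4, U2AF2, PRPF6 and PRPF31), where it called 20.5% and 17.5% of its genes.

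The calls also depended on single libraries. Without knockdown replicate 1, limma without a block called 14 of the 45 members lower, where 19.8% of all genes tested were called, and 3 of them (DHX15, LUC7L3 and CLK1) passed the fold threshold, where 2.89% of all genes did. When both libraries numbered 1 were left out, which was chosen after seeing the data, limma without a block called 22 of the same 45 members lower and 1 higher, PRPF6, where it called 25.3% and 9.68% of all genes. In that fit 0 of the 45 passed the fold threshold, where 1.66% of all genes did.

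**Figure D1:**
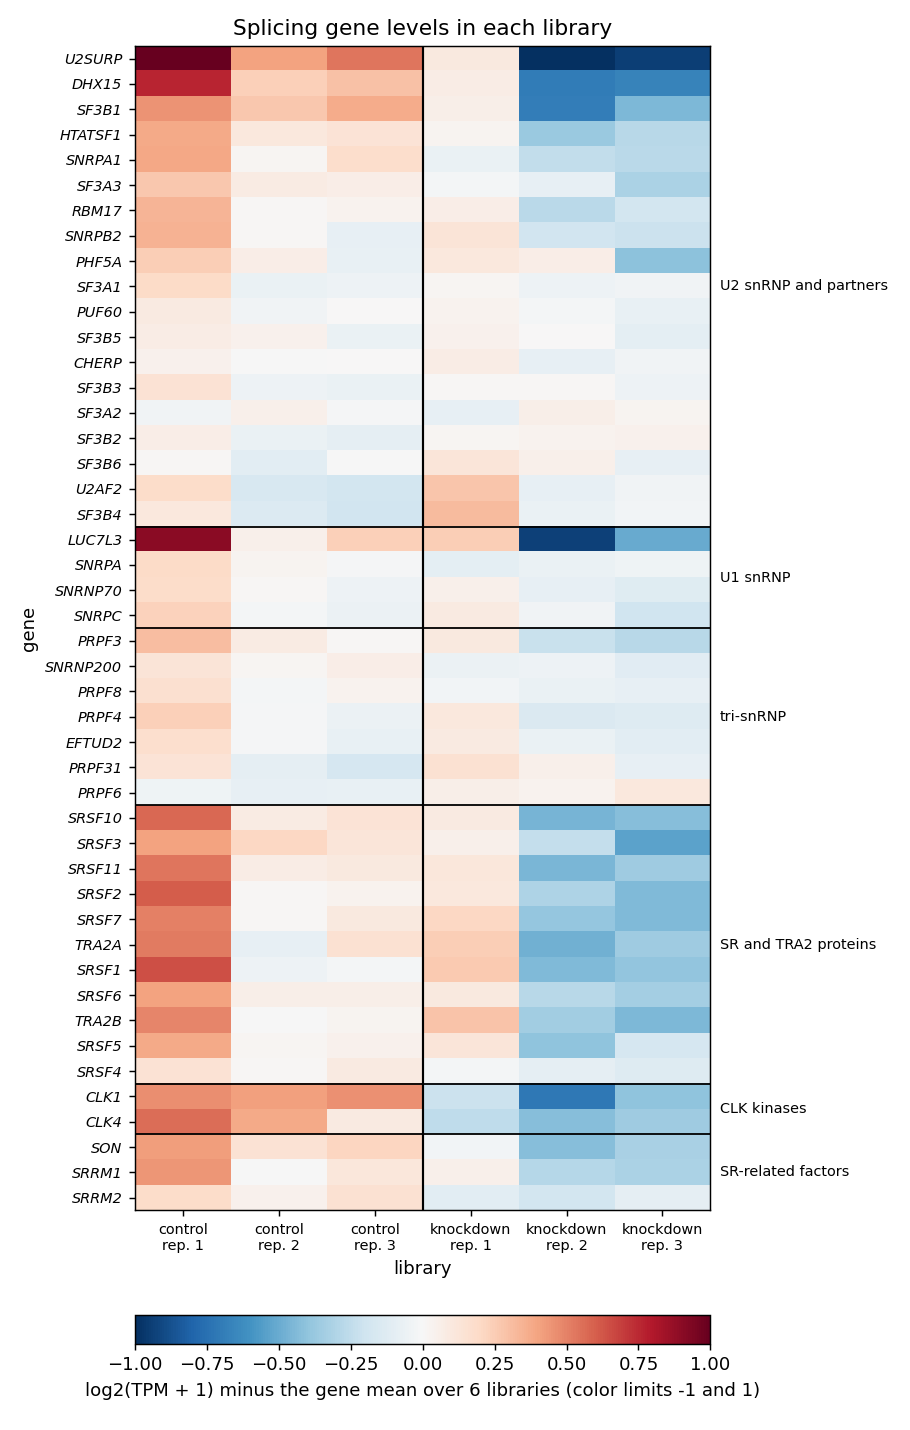
Levels of the 46 tested members in each of the 6 libraries, as log2(TPM + 1) minus the mean of the gene over all libraries; red is above and blue below that mean, with color limits of -1 and 1. Control replicate 1 is the reddest column, knockdown replicates 2 and 3 are the bluest, and knockdown replicate 1 lies between them for the SR and TRA2 genes.

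U2SURP, on chromosome 3 (chr3:142964497-143060546, plus strand, GRCh38), encodes an SR-related protein that associates with the U2 snRNP. The controls, replicates 1 to 3, had 38.0, 22.6 and 24.9 TPM, and the knockdown libraries in the same order had 18.1, 6.73 and 8.31 TPM. The groups did not overlap, and knockdown replicate 1 lay nearest to the controls. The mean was 11.1 ± 6.18 TPM (SD, n = 3) in the knockdown group and 28.5 ± 8.30 TPM (SD, n = 3) in the controls, which is 61.2% lower. Its log2 fold change was -1.37 with a standard error (SE) of 0.36, or 0.122 with the replicate block, and it ranked 31 from the lowest among the 13980 genes tested. The log2 differences within the same-numbered pairs were -1.03, -1.61 and -1.48. U2SURP also had the lowest transcript GC content of all tested members (36.2%), and its log2 fold change was -0.91 once the trend of each library with GC content had been removed.

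The U2 snRNP genes divided into a lower set and a larger set with little difference. SF3B1, the HEAT-repeat subunit of SF3b that contacts the branch point, was at 60.6, 53.2 and 57.2 TPM in the controls and at 45.8, 26.9 and 32.0 TPM after the knockdown. All 3 knockdown values were below the lowest control, and replicate 1 was the least reduced. On the log2 scale the change was -0.72 (SE 0.19), with a limma adjusted p = 0.0892, or 0.00935 with the replicate block.

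DHX15, the helicase that takes apart the intron-lariat spliceosome and also binds U2 components, was at 120, 83.3 and 86.5 TPM in the controls and 74.4, 43.0 and 44.0 TPM in the knockdown libraries. Here too the groups were separate, with a log2 fold change of -0.86 (SE 0.24). With the replicate block, limma also called HTATSF1, which helps the U2 snRNP to join, at -0.41. The U2 snRNA-binding proteins SNRPA1 (-0.39) and SNRPB2 (-0.18), SF3A3 (-0.28) and RBM17 (-0.26) were called lower in the same fit. Once the trend of each library with GC content had been removed, SNRPB2 (0.25) and RBM17 (0.03) turned positive. With that offset and the block, SNRPA1, SNRPB2, SF3A3 and RBM17 were not called. Limma-voom with the block called SNRPA1 and SF3A3 but not SNRPB2 or RBM17 (adjusted p = 0.303 and 0.0535).

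The other SF3a and SF3b subunits had values near 0. SF3B2 had a mean of 319 ± 2.76 TPM in the knockdown group and 306 ± 18.8 TPM in the controls (SD, n = 3), and SF3A2 was at 133 TPM in both. For SF3B3 the log2 fold change was -0.02, with a 95% interval from -0.20 to 0.17, and that of SF3B5, -0.03, had an interval from -0.20 to 0.13. SF3B4, an RNA-binding subunit of SF3b, was at 276, 234 and 225 TPM in the controls and 320, 246 and 252 TPM in the knockdown libraries. It was higher in each same-numbered pair, but the groups overlapped. Its log2 fold change was 0.15 (SE 0.13), with a limma adjusted p = 0.496, or 0.0499 with the replicate block and 0.108 with the block and the GC-content offset, and over the 17 alternatives tried it ranged from 0.00754 to 0.865. Without knockdown replicate 1 the log2 fold change of SF3B4 was 0.027.

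Over the 19 tested genes of the U2 group the median log2 fold change was -0.05, but 0.02 with upper-quartile scaling and 0.05 with limma-voom, so no direction holds for the group. U2AF2, the large U2AF subunit, stood at 0.11 with a 95% interval from -0.22 to 0.44. PHF5A, a small SF3b subunit, stood at -0.16, from -0.54 to 0.22. The remaining values, those of SF3A1, SF3B6, CHERP and PUF60, lay between -0.05 and 0.06.

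In the U1 snRNP the core proteins were close to level, and LUC7L3 was not. LUC7L3, a U1-associated protein of the 5′ splice site, was at 44.8, 24.5 and 28.1 TPM in the controls and 28.1, 11.9 and 16.3 TPM after the knockdown. Knockdown replicate 1 was as high as control replicate 3, so the groups overlapped. Its log2 fold change was -0.79 (SE 0.34), with a limma adjusted p = 0.202, or 0.00481 with the replicate block.

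SNRPC, a U1-specific protein, had log2 fold changes of -0.14, -0.02 and -0.14 in the 3 pairs and of -0.10 (SE 0.11) in the fit, with a limma adjusted p = 0.604, or 0.141 with the block. Its sign turned with limma-voom on recovered reads, at 0.0021. SNRNP70, which binds a stem-loop of U1 RNA, stood at -0.10 and SNRPA at -0.13, with groups that did not overlap for SNRPA alone. Once the GC-content offset and the replicate block were used together, both SNRNP70 and SNRPA were called lower along with LUC7L3. That fit called 11.3% of all genes tested lower. With limma-voom and the block neither SNRNP70 nor SNRPA was called (adjusted p = 0.987 and 0.744).

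Tri-snRNP genes had small differences in both directions. PRPF3, a U4/U6 protein, was at 29.8, 25.4 and 24.1 TPM in the controls and 25.6, 20.4 and 19.6 TPM in the knockdown group. It was lower in each pair with overlapping groups, at a log2 fold change of -0.27 (SE 0.13) and a limma adjusted p = 0.251, or 0.0199 with the block. PRPF6, which bridges U5 and U4/U6, went the other way.

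Levels of PRPF6 were 126, 123 and 124 TPM in the controls and 135, 133 and 140 TPM after the knockdown, without overlap. Its log2 fold change was 0.13 (SE 0.06), with a limma adjusted p = 0.194, or 0.0543 with the block. PRPF8, the large scaffold protein at the catalytic center, was lower by 7.98% in mean TPM, and the U4/U6-unwinding helicase SNRNP200 by 9.69%. Their groups did not overlap either, and neither passed the test with or without the block. The length offset turned the median of the 7 tri-snRNP genes from -0.11 to 0.13.

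The SR proteins and their TRA2 relatives were all lower, by amounts that shrank once GC content was taken into account. All 11 genes had a negative log2 fold change, from -0.53 in SRSF10 to -0.16 in SRSF4, with a median of -0.39. All 11 were lower in each of the 3 same-numbered pairs, where 43.7% of all genes tested were, and neither upper-quartile scaling nor limma-voom turned the median of the group, at -0.33 and -0.32. The GC-content offset, which removes the trend of each library with GC content, brought that median to -0.09 and turned SRSF6 to 0.043. With the offset and the replicate block 2 of the 11 (SRSF1 and SRSF10) were called lower, where 11.3% of all genes tested were. With neither offset nor block 0 of the 11 passed the limma test, where 0.629% of all genes tested were lower and 0.25% higher. In that fit 3 (SRSF3, SRSF10 and SRSF11) had an unadjusted p under 0.05, a share of 27.3% against 26.1% of all genes tested.

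SRSF10, a splicing factor that acts as a repressor when dephosphorylated, was at 22.1, 15.4 and 16.0 TPM in the controls and 15.5, 10.2 and 10.6 TPM in the knockdown libraries. Knockdown replicate 1 lay within the range of the controls, so the groups overlapped. SRSF10 thus had a log2 fold change of -0.53 (SE 0.20), with a limma adjusted p = 0.163, or 0.00644 with the block.

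SRSF1 showed the replicate pattern most plainly. It was at 133, 81.5 and 83.3 TPM in the controls and 101, 62.0 and 64.1 TPM after the knockdown. Replicate 1 was 1.61 times the mean of replicates 2 and 3 in each group, so knockdown replicate 1 lay above control replicates 2 and 3, yet the log2 differences within pairs were -0.39, -0.39 and -0.37. The SE of its log2 fold change was 0.26 without the block and 0.0411 with it.

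SRSF2, the SR protein of the list with the highest mean control level, was at 393, 260 and 264 TPM in the controls and 279, 209 and 190 TPM after the knockdown. SRSF3, a small SR protein that also acts in mRNA export, was at 123, 107 and 101 TPM in the controls and 96.1, 78.2 and 63.6 TPM in the knockdown libraries. The groups did not overlap for SRSF3 and SRSF4, and overlapped for the other 9 genes. Of all genes tested, 22.3% had knockdown values wholly below the controls. SRSF4 was at 93.0, 84.7 and 89.4 TPM against 82.9, 78.9 and 77.0 TPM, a log2 fold change of -0.16 (SE 0.07) with a limma adjusted p = 0.195, or 0.0443 with the block. With limma-voom and the block the adjusted p of SRSF4 was 0.424.

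The remaining SR genes, SRSF5, SRSF6, SRSF7 and SRSF11, and the enhancer-binding proteins TRA2A and TRA2B, had log2 fold changes between -0.47 and -0.30. Replicate 1 was the highest library in both groups for all 11 genes. Its median log2 excess over the mean of replicates 2 and 3 was 0.52 in the knockdown group and 0.45 in the controls, against 0.08 and 0.04 over all genes tested. The excess was thus as large as the difference between the groups. What set replicate 1 apart was not tested.

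**Figure D2:**
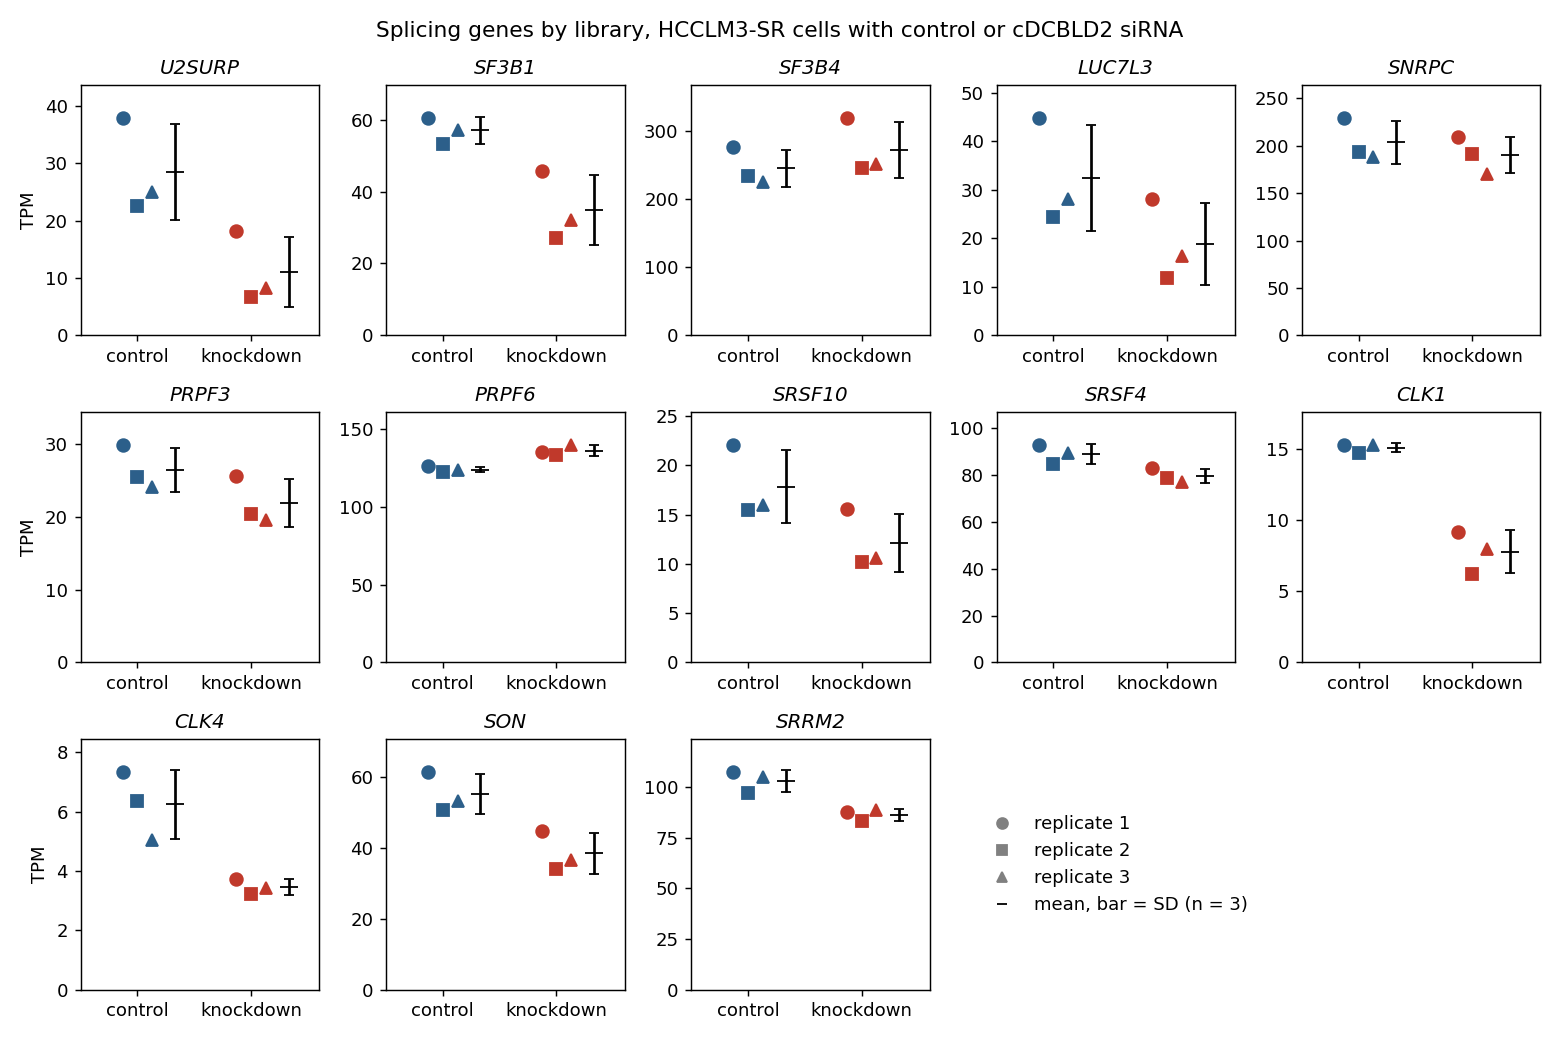
TPM of the 13 named members in each library, with controls in blue, the knockdown group in red, a symbol for each replicate number, and the mean with an SD bar (n = 3). Replicate 1 (circle) is the highest symbol in most panels, and for U2SURP, SF3B1, CLK1, CLK4, SON, SRSF4 and SRRM2 the 3 knockdown symbols lie below the 3 controls.

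CLK1 and CLK4, dual-specificity kinases that phosphorylate SR proteins in the nucleus, had lower log2 fold changes than the 11 SR and TRA2 genes, though with the GC-content offset CLK4 (-0.27) was no lower than SRSF1 (-0.30). CLK1 was at 15.3, 14.7 and 15.3 TPM in the controls and 9.18, 6.18 and 7.95 TPM after the knockdown. The control values were nearly equal and lay well above all knockdown values, so CLK1 did not follow the replicate pattern of the SR genes there. Mean TPM fell from 15.1 ± 0.319 to 7.77 ± 1.51 (SD, n = 3), and the log2 fold change was -0.89 (SE 0.14). The limma adjusted p was 0.0526 without the block and 0.00606 with it, and 0.0388 with limma-voom without a block, and over the 17 alternatives tried it ranged from 0.000583 to 0.222.

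CLK4 was a low-level gene, on 65 to 128 recovered reads per library. Its values were 7.34, 6.37 and 5.04 TPM in the controls and 3.74, 3.22 and 3.42 TPM in the knockdown group, with no overlap. The log2 fold change was -0.69 (SE 0.15), with a limma adjusted p = 0.0690, or 0.0112 with the block. With the GC-content offset it was -0.27, and the limma adjusted p with offset and block was 0.192, so the call for CLK4 did not hold there while that for CLK1 did (0.0122). Over the 17 alternatives the adjusted p of CLK4 ranged from 0.00682 to 0.367. Their relatives CLK2 and CLK3, chosen with the list of further splicing genes, had log2 fold changes of -0.25 and -0.01 with 95% intervals that reached from -0.70 to 0.20 and from -0.28 to 0.27.

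The SR-related factors were lower as well. SON, a large nuclear-speckle protein needed for splicing of weak introns, was at 61.4, 50.6 and 53.3 TPM in the controls and 44.8, 33.9 and 36.5 TPM after the knockdown. The groups were separate, and the log2 fold change was -0.51 (SE 0.13), with a limma adjusted p = 0.0849, or 0.00481 with the block. The length offset brought the change of SON to -0.20 (limma adjusted p = 0.178, no block).

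SRRM2, the main scaffold of nuclear speckles, was at 107, 96.9 and 105 TPM against 87.6, 83.0 and 88.4 TPM. It was lower in each pair by a small and even amount, a log2 fold change of -0.25 (SE 0.07) with a limma adjusted p = 0.0956, or 0.0111 with the block. SRRM2 has one of the longest transcripts of the list, and the length offset turned its value to 0.074. SRRM1, the partner of SRRM2, stood at -0.37 with overlapping groups.

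**Figure D3:**
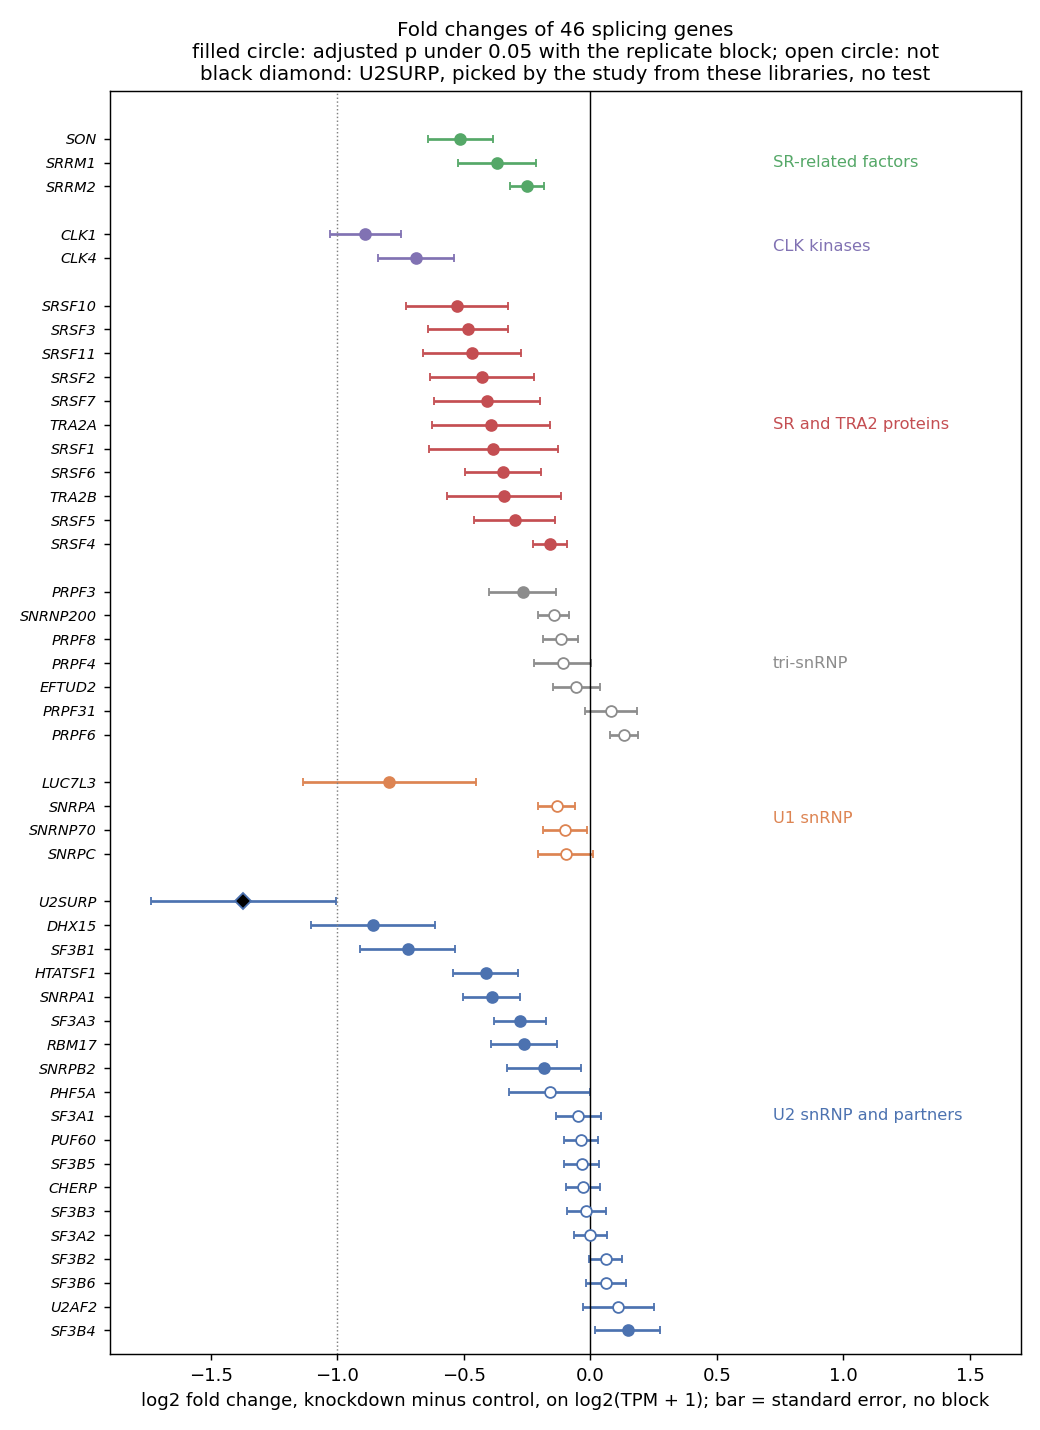
Log2 fold changes (knockdown minus control) of the 46 tested members by role, on log2(TPM + 1), with the SE of the fit without a block as bars. Filled circles have an adjusted p under 0.05 with the replicate block; the SR, CLK and SR-related genes are all filled and left of 0, while most U2, U1 and tri-snRNP genes lie near 0. U2SURP at -1.37 is drawn as a black diamond with no test.

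The members' fold changes followed transcript GC content. Spearman's rho between log2 fold change and GC content was 0.756 across the 46 members and 0.638 across the 13163 genes tested that have a GC value, as a description across genes, which share the same 6 libraries and are not independent replicates. With the genes divided by GC content into 5 bins of equal size, the bin of lowest GC had a median of -0.48 over 9 members and -0.40 over all its genes. The next bin had -0.40 over 10 members and -0.25 over all, and the middle bin -0.16 over 15 members and -0.07 over all. The bins of highest GC had 0.06 over 7 members and -0.03 over 5, against 0.04 and 0.11 over all.

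The roles differ in the same property. Median GC content was 42.7% in the SR and TRA2 genes, 52.7% in the tri-snRNP genes and 54.3% in the U1 genes, against 50.02% over all genes tested. After the trend of each library with GC content had been removed, the median log2 fold change was -0.09 in the SR and TRA2 genes, -0.48 in the CLK genes, -0.30 in the SR-related genes, -0.23 in the U1 genes, -0.09 in the U2 genes and -0.04 in the tri-snRNP genes. The median of all 46 members was then -0.13, and that of all genes tested -0.01.

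With the offset alone, limma called 0 of the 45 members other than U2SURP, where it called 0.0143% of all genes lower and 0.0215% higher. With the offset and the replicate block, 13 of the 45 members other than U2SURP were lower, where 11.3% of all genes were, and 1 was higher, SF3B6 at 0.38, where 10% of all genes were. The 13 were SF3A2, SF3B1, DHX15, HTATSF1, SNRNP70, SNRPA, LUC7L3, SRSF1, SRSF10, CLK1, SON, SRRM1 and SRRM2. Thus 2 of the 11 SR and TRA2 genes remained, and 3 genes that had not been called without the offset (SF3A2, SNRNP70 and SNRPA) entered. Whether the GC trend arose in the cells or in the libraries was not tested.

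**Figure D4:**
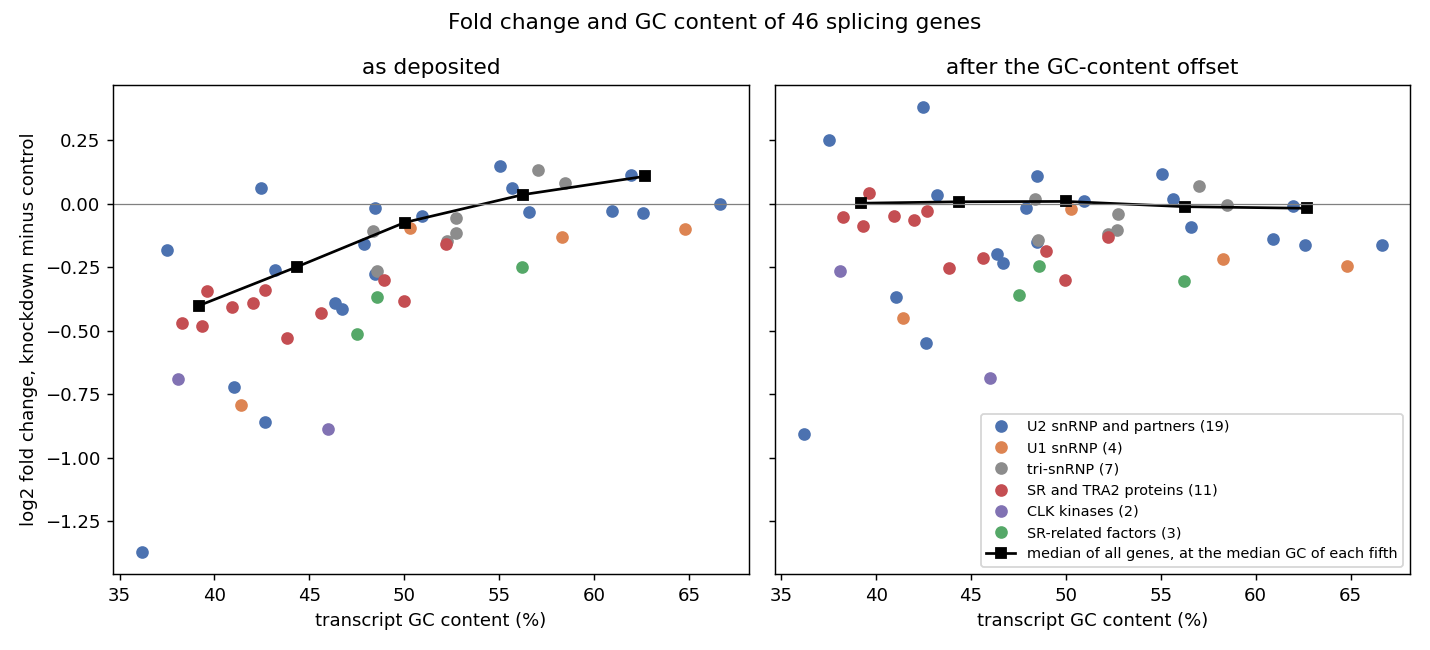
Log2 fold change against transcript GC content (%) for the 46 tested members, colored by role, as deposited (left) and after the GC-content offset (right); black squares join the medians of all genes at the median GC of each of 5 bins. On the left members and squares rise together from -0.40 to 0.11 in the squares, and on the right the squares are level while U2SURP, CLK1, DHX15 and LUC7L3 stay below -0.40.

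Promoter letters were searched in the 40 members with a RefSeq entry (GRCh38.p14, 250 bases before to 50 after the start), as a description. Each motif searched was absent from most of the 40. CCGGAAG, a core motif of ETS factors, was present on either strand in 15 of 40 (37.5%), against 19.5% of 10508 genes tested and 10.7% of all 27305 promoters. It was present in 6 of 23 members called lower with the replicate block (26.1%, U2SURP included). Among members not called lower it was present in 9 of 16 (56.3%), and this split was not tested. Windows of 29 bases are printed for U2SURP, for the lower gene SRSF5 and for the 2 genes highest on the list, with the motif in capitals.
U2SURP, chr3:143001462-143001490, plus strand: aattactgacaCCGGAAGtcacgtgagcg
SRSF5, chr14:69767074-69767102, plus strand: caggggcgtccCCGGAAGtgacgtaggac
SF3B4, chr1:149927812-149927840, minus strand: ccgtcttcgccCCGGAAGtggaagtcgtg
PRPF6, chr20:63981015-63981043, plus strand: cctagccgcggCCGGAAGtcgtcgaacca
The U2SURP motif begins 97 bases before the RefSeq start, which lies inside the gene interval given above for U2SURP and not at its first base. The window also holds the E-box letters CACGTG, found in 4 of 40 members (10%) and 10.4% of genes tested. TATAAA or its reverse complement was present in 3 of 40 members (7.5%) and 5.72% of genes tested, and CCAAT in 11 of 40 (27.5%) and 36.6%. These are matches of letters, without a measurement of binding.

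A list of 106 further splicing genes was set beside the members, and 105 of them were tested. Their median log2 fold change was -0.21. Limma called 0 lower and 0 higher without the block, with 31 at an unadjusted p under 0.05 (26.1% of all genes tested), and limma-voom called 1 lower. With the replicate block, 51 were lower and 2 higher, where 25% and 9.94% of all genes tested were called. The lowest were AQR, an intron-binding helicase, PNN, a speckle protein that binds SR proteins, and BCLAF1, an SR-related protein.

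AQR was at 12.6, 10.3 and 11.9 TPM in the controls and 7.62, 4.36 and 4.25 TPM after the knockdown, without overlap. Its log2 fold change was -1.01 (SE 0.21), with a limma adjusted p = 0.0663, or 0.00748 with the block. PNN stood at -1.01 (SE 0.39), with a limma adjusted p = 0.166, or 0.00436 with the block, and BCLAF1 at -0.92 (SE 0.42), with 0.225 and 0.00775. In both, knockdown replicate 1 lay within the range of the controls.

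The highest were ZMAT5, of the minor spliceosome, at 0.26 (SE 0.14), the U5 protein CD2BP2 at 0.21 (SE 0.07) and RNF113A at 0.16 (SE 0.12). Their limma adjusted p values were 0.286, 0.130 and 0.408, and with the block 0.0697, 0.0216 and 0.161. CD2BP2 was thus called higher with the block, along with SRSF9, an SR protein outside the naming rule that is given because it completes the count of 2. SRSF9 was at 465, 412 and 431 TPM in the controls and 494, 481 and 470 TPM after the knockdown, opposite in sign to the 11 SR and TRA2 genes described above.

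By sub-group, the block fit called lower 7 of 11 further SR proteins and SR kinases, 8 of 14 U1- and U2-associated proteins, 10 of 17 hnRNP proteins, 4 of 8 minor-spliceosome proteins, 6 of 14 Sm and LSm proteins, 10 of 25 proteins of the PRP19 complex and catalytic steps, 4 of 11 tri-snRNP proteins and 2 of 5 exon junction proteins, each to be read against the 25% of all genes tested. With the GC-content offset and the block, 21 of the 105 were lower and 4 higher, where 11.3% and 10% of all genes tested were called. The log2 fold change of these genes also followed GC content, with a Spearman's rho of 0.745 across the 105 genes, given as a description.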

How the data were processed

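HCCLM3-SR libraries (3 cDCBLD2 siRNA, 3 control siRNA) were grouped by the labels. The authors deposited 1 table of TPM per gene. The submitters' processing notes name fastp 0.20.1, HISAT2 2.1.0, StringTie 2.0 and hg38, while settings for strand and multimapping are not given in the sources used here. Reads of overlapping genes and of near-identical copies are therefore uncertain. Examples are SRSF2 with MFSD11, SON and SRRM2 with opposite-strand neighbors, and SRSF1 and CHERP with same-strand neighbors. Further members overlap an opposite-strand gene, among them SF3A1, SF3A2, SNRPA, PRPF4, PRPF31 and EFTUD2.

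TPM values are not counts, so limma 3.58.1 (R 4.3.3) was fitted with a mean-variance trend to log2(TPM + 1) for the 13980 genes averaging 1 TPM or more, with Benjamini-Hochberg adjustment over all of them. Fold changes of low genes are understated on this scale. DESeq2, named by the authors, was not used. Same-numbered libraries deviated together from their group means (correlations of 0.560, 0.343 and 0.362, or 0.480, 0.254 and 0.330 after the GC-content offset). Deviations from a mean of 3 sum to 0, so a shift shared by the libraries numbered 1 can by itself raise all 3 correlations. They therefore do not show that the remaining libraries are paired, and differently numbered libraries were not compared. The replicate block assumes pairing by number, which no label explains, and fits without and with it are both given. Whole reads were recovered from the deposited TPM for 99.95% of 17285 genes (tolerance 0.01 reads), and for 0% after the library factors had been shifted by 10%. Limma-voom used the 15010 genes with 10 or more of these reads in at least 3 libraries. GC content and length came from GENCODE release 29 (94.2% of genes tested), and their trends were removed by loess with a span of 0.5. The fit was tested on simulated data.

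Named members are U2SURP, SF3B1, the lowest and highest gene of each of 6 roles and any member past both thresholds (an adjusted p of 0.05 and a log2 change of 1). Of the further splicing genes the 3 lowest and 3 highest were named. Other members are given by value, and those described in detail, such as DHX15 and SRSF1, were picked after their values were seen. The members and lists were chosen with earlier results of these data known. Python 3.11.15, pandas 2.3.3, numpy 2.4.6, numba 0.67.0, scipy 1.17.1 and matplotlib 3.10.9 were used.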

Additional observations from a re-analysis of the deposited data

How the results depend on the processing

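Without a block, limma called 0 members lower or higher with a pseudocount of 0.1, no filter, upper-quartile scaling or the GC-content offset. It called 1 member lower among protein-coding genes only, 1 with the length offset and 1 with limma-voom on recovered reads, and 1 further splicing gene lower among protein-coding genes and with limma-voom. The counts that follow include U2SURP, which was chosen for its low level in these knockdown libraries and is no evidence. With the replicate block 26 members were lower (25 without U2SURP) and 1 higher, 1 was past both thresholds (0 without U2SURP), and 51 further genes were lower and 2 higher. Of all genes tested, 25% were lower and 9.94% higher there. With the GC-content offset and the block the counts were 14 and 1 for the members and 21 and 4 for the further genes, where 11.3% and 10% of all genes were called. With limma-voom and the block the counts were 23 and 4 (1 past both thresholds) and 39 and 5, where 20.5% and 17.5% of its genes were called. With both libraries numbered 1 left out, chosen after seeing the data, the counts were 23 and 1 (1 past both thresholds) and 46 and 3. That fit called 25.3% of all genes lower and 9.68% higher. Leaving out a single library, each arm of 2 being assumed to vary like the other, gave 0 to 15 members lower, 0 to 4 past both thresholds and 0 to 35 further genes lower. The highest counts came without knockdown replicate 1, where 19.8% of all genes were called lower and the 4 were DHX15, LUC7L3, CLK1 and U2SURP. The median of the members then ranged from -0.32 to -0.16. The sign turned for SNRPC with limma-voom (0.0021, and 0.0014 with the block) and for SRRM2 with the length offset (0.074), and the cause was not tested. No other named gene changed sign under the 17 alternatives.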
